A study of Mus musculus with 16 samples.

Results

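The 6 actin genes of the mouse (Acta1, Acta2, Actb, Actc1, Actg1 and Actg2) were followed through cultured muscle cells as 6 of 35613 genes in the data. They were chosen by name as the complete set of conventional actins, and the level of each was the sum over its annotated transcripts. All 16 libraries came from skeletal muscle cells of the Pax7-nGFP genotype, in which nuclear GFP reports Pax7, a regulator made by satellite cells, the stem cells of muscle. RNA was poly(A)-selected and sequenced, with 3 biological replicates in each of 5 groups and 1 library without a replicate. Bulk myoblasts were unsorted and harvested at passage 3 in a growth medium with horse serum, fetal serum and basic FGF. GFP+ myoblasts grew in the same medium and were sorted for GFP at passage 5 to 6. Differentiated myoblasts spent 3 days in a low-serum medium and were harvested, unsorted, at passage 4 to 5. Cultures that the labels call MPC, without spelling it out, grew as myoblasts for 2 to 3 passages. They were then kept for 5 to 6 passages in a serum replacement medium with 5 µM forskolin (an adenylyl cyclase activator), 5 µM RepSox (a TGF-beta type I receptor inhibitor) and 3 µM of a compound labelled CHIR9901. Some were harvested as they were (bulk MPC) and others went through a GFP sort first (GFP+ MPC). These 15 libraries came from cells of male animals aged 16 weeks. The single library was a GFP+ MPC sort from a line of a female aged 39 weeks, whose GFP- myoblasts at passage 8 spent 2 passages in the MPC medium. The sort, the RNA kit (which differed between sorted and unsorted cells) and, for myoblasts, the passage number cannot be told apart, nor can medium, compounds and passage number between MPC and myoblasts.

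Actin polymerises into the filaments that shape cells and, together with myosin, contract muscle. The striated muscle actins are Acta1 (skeletal alpha-actin) and Actc1 (cardiac alpha-actin), which build the thin filaments of the sarcomere. Actc1 is the early striated actin of forming muscle, and Acta1 takes over in mature skeletal muscle. Acta2 (alpha) and Actg2 (gamma) are the smooth muscle actins, and Acta2 is also made by myofibroblasts and by immature muscle cells. Actb (beta) and Actg1 (gamma) are the cytoplasmic actins of nearly every cell. Transcription of actin genes is classically driven by SRF, which binds the CArG box, and by its partners MRTF-A and MRTF-B, which free actin monomers hold inactive in the cytoplasm.

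The promoters are shown because the CArG box is the element through which SRF is known to act on actin genes, and the 4 that could be read differ in how many they hold. Of the 6 genes, 4 had an entry in the RefSeq table of mouse promoters (build GRCm38.p6). The 250 bases before each start site are printed 5′ to 3′ on the gene's strand, with CArG boxes and CArG-like elements in capitals. A CArG box was taken as CC, 6 bases that are all A or T, and GG. A CArG-like element had 1 G or C among those 6 bases. The pattern reads the same on both strands.
Acta1, chr8:123894776-123895025, minus strand: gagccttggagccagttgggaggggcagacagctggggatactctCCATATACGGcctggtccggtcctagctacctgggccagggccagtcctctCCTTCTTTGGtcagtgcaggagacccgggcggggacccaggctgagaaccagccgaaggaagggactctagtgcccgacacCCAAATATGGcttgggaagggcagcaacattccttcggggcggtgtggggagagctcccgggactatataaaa
Actc1, chr2:114052876-114053125, minus strand: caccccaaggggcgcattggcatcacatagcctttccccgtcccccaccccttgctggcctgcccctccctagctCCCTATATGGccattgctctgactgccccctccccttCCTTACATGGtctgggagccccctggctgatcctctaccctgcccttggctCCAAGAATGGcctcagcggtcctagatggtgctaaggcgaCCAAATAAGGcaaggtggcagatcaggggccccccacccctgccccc
Acta2, chr19:34255374-34255623, minus strand: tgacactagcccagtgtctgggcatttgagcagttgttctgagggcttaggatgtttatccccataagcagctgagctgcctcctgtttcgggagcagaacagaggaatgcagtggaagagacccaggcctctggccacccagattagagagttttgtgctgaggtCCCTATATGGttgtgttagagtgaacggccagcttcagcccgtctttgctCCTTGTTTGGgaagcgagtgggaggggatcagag
Actg1, chr11:120348496-120348745, minus strand: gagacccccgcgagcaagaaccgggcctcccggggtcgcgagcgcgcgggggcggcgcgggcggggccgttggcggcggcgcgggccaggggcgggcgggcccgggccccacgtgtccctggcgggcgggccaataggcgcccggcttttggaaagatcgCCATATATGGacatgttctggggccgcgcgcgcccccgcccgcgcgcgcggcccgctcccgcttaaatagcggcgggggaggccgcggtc

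Acta1 held 3 matches, of which 1 was a CArG box that begins 73 bases before the start. Actc1 held 4 matches, of which 1 was a CArG box that begins 47 bases before it. Acta2 held 2 CArG-like elements, and Actg1 held 1 CArG box that begins 90 bases before the start. Of 32851 promoters of the same length, 1.47% held a CArG box, 8.59% held a CArG box or CArG-like element, and 0.67% held at least 2 of either kind. A match describes the letters and is no measured binding site.

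The libraries held 19.3 to 29.1 M estimated counts. Pax7 was at 528 to 1006 CPM (the usual per-library scaling of counts, with TMM factors) in bulk and GFP+ myoblasts and at 596 to 868 CPM in GFP+ MPC, against 25.5 to 137 CPM in differentiated myoblasts and bulk MPC. Myod1, another muscle lineage marker, was at 677 to 824 CPM in bulk myoblasts, 896 to 959 CPM in GFP+ myoblasts and 299 to 356 CPM in differentiated myoblasts. It was lower in MPC, at 148 to 180 CPM in bulk MPC and 95.1 to 285 CPM in GFP+ MPC. Myog, the factor that starts muscle differentiation, was at 838 to 1290 CPM in the 3 unsorted groups and at 32.7 to 149 CPM in the 2 sorted groups. Mki67, a marker of dividing cells, was at 1.08 to 3.82 CPM in differentiated myoblasts, 49.8 to 157 CPM in bulk MPC and 174 to 924 CPM elsewhere in the replicated groups. The summed CPM of 8 fibroblast markers were 186 in bulk MPC replicate 2, against 7.02 and 3.74 in the other bulk MPC libraries and 22.3 to 132 in bulk myoblasts. Endothelial markers summed to at most 2.81 CPM and macrophage markers to at most 10.8 CPM. Schwann cell markers summed to 52.3 to 97.7 CPM in GFP+ MPC, with the defining Sox10 and S100b at 0. Bulk MPC replicate 2 also had the highest Actb, Actg1, Acta2 and Actg2 of its group; its part in the results was not tested, and values without it are given where they differ.

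The make-up of the actin transcripts separated the groups. Striated actins made up 58.7% to 69.8% of actin transcripts in bulk myoblasts, 92.7% to 94.4% in differentiated myoblasts and 95.3% to 97.7% in bulk MPC, on the scale of TPM, a relative transcript abundance that corrects for transcript length and library size. In the sorted groups their share was 1.62% to 2.67% in GFP+ myoblasts and 14.6% to 30.3% in GFP+ MPC. No range of 1 group overlapped that of another. In a bulk sample, fewer cells of a type and less RNA per cell cannot be told apart.

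Cytoplasmic actins took most of the actin transcripts in sorted cells, with 92.3% ± 3.15 (SD, n = 3) in GFP+ myoblasts and 69.2% ± 9.09 (SD, n = 3) in GFP+ MPC. They made up 27.9% ± 6.21 (SD, n = 3) in bulk myoblasts, 2.34% ± 0.639 (SD, n = 3) in differentiated myoblasts and 2.52% ± 0.973 (SD, n = 3) in bulk MPC. The last 2 groups overlapped, and the others stood apart. Smooth muscle actins, nearly all Acta2, ranged from 0.754% ± 0.250 (SD, n = 3) in bulk MPC to 10.4% ± 3.92 (SD, n = 3) in GFP+ MPC.

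The sum of the 6 genes also differed. It came to 2.17% ± 0.0615 (SD, n = 3) of all TPM in differentiated myoblasts, 2.03% ± 0.240 (SD, n = 3) in bulk MPC and 1.60% ± 0.161 (SD, n = 3) in bulk myoblasts. It came to 0.871% ± 0.0153 (SD, n = 3) in GFP+ myoblasts and to 0.445% ± 0.0947 (SD, n = 3) in GFP+ MPC. The GFP+ MPC libraries (0.342% to 0.528%) lay below every GFP+ myoblast library (0.856% to 0.887%). No test was run on the shares.

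**Figure D1:**
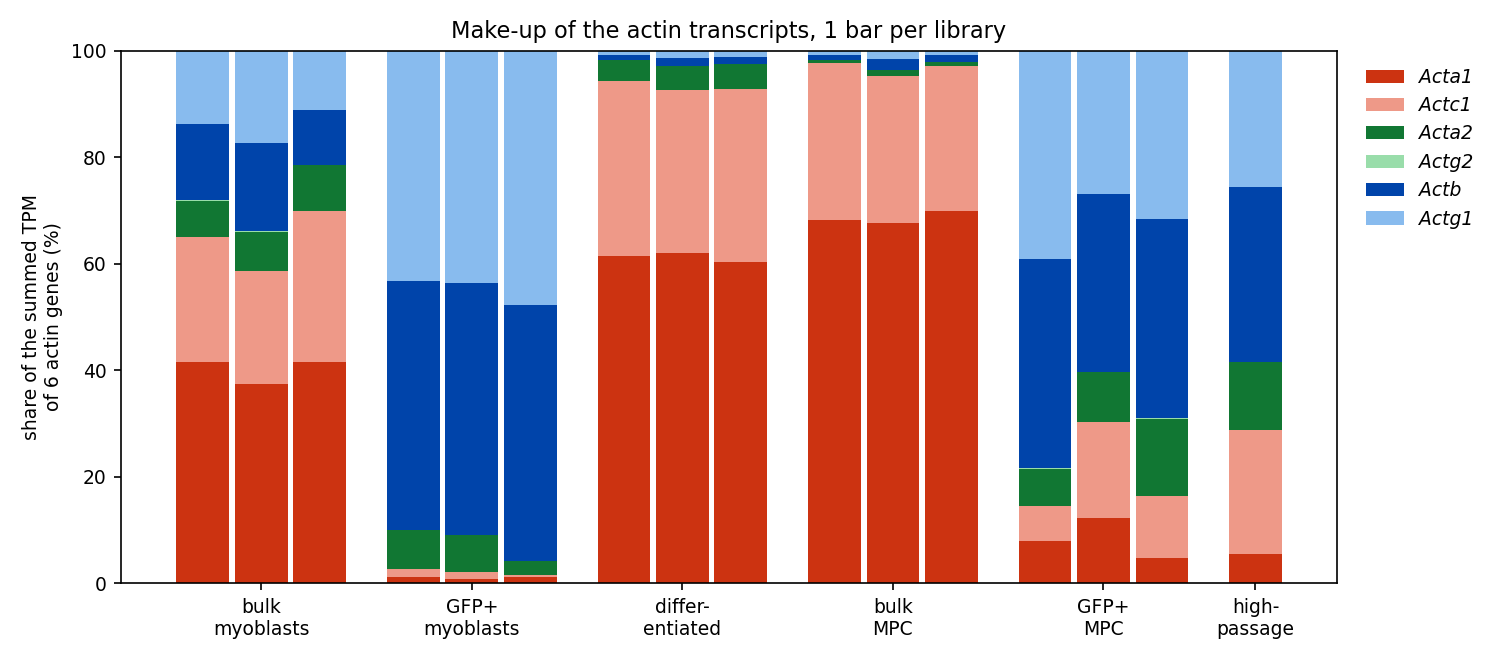
Share of each actin gene in the summed TPM of the 6 genes (vertical axis, %), 1 stacked bar per library, grouped by culture. Red shades (striated actins) fill 92.7% to 97.7% of the bars of differentiated myoblasts and bulk MPC, and blue shades (cytoplasmic actins) fill 60.3% to 95.8% of the bars of the 2 replicated sorted groups.

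Acta1, skeletal alpha-actin, covered the widest range. It was at 18682, 13025 and 15198 CPM in bulk MPC replicates 1 to 3, at 12357, 11969 and 11861 CPM in differentiated myoblasts and at 5469.6, 4325 and 5823 CPM in bulk myoblasts. In the sorted groups it was at 231, 469.8 and 202 CPM in GFP+ MPC and at 77.5, 59.4 and 75.3 CPM in GFP+ myoblasts. None of the 5 groups overlapped another in CPM. On the TPM scale bulk MPC (12560 to 15725) and differentiated myoblasts (12996 to 13574) did overlap. In the order of mean levels, bulk MPC and differentiated myoblasts did not differ by the test (log2 fold change 0.37 ± 0.27 SE, edgeR adjusted p = 0.274), and each further step down passed it (adjusted p at most 0.00198). One of those steps, bulk myoblasts to GFP+ MPC, is a pair of groups in which 59.6% of tested genes passed.

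Actc1, cardiac alpha-actin, followed the same order of mean CPM with more spread. It was at 8789, 5800.4 and 6400.4 CPM in bulk MPC, at 7102, 6390.4 and 6904 CPM in differentiated myoblasts and at 3363, 2643 and 4271 CPM in bulk myoblasts. In sorted cells it was at 203, 714 and 514 CPM in GFP+ MPC and at 96.1, 80.8 and 40.9 CPM in GFP+ myoblasts. Bulk MPC and differentiated myoblasts overlapped, and no other pair did. On the TPM scale this pair stood the other way round and overlapped too. Its mean TPM was 5730 in bulk MPC and 6949 in differentiated myoblasts. The ratio of Acta1 to Actc1 on the TPM scale was 2.44 ± 0.121 (SD, n = 3) in bulk MPC, 1.91 ± 0.0923 in differentiated and 1.66 ± 0.175 in bulk myoblasts. It was 1.20 ± 0.682 in GFP+ myoblasts and 0.773 ± 0.410 (SD, n = 3) in GFP+ MPC. The 3 unsorted groups did not overlap in this ratio, whereas the sorted groups spread from 0.417 to 1.98 and overlapped each other.

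Actb, beta-actin, ran the opposite way. It was at 3469, 3567 and 4131 CPM in GFP+ myoblasts, at 2131, 2318 and 1759.7 CPM in bulk myoblasts and at 1410, 1647 and 1974 CPM in GFP+ MPC. It was at 334, 488 and 329 CPM in bulk MPC and at 196, 343 and 276 CPM in differentiated myoblasts. GFP+ myoblasts lay above all others, bulk myoblasts overlapped GFP+ MPC (log2 fold change 0.30 ± 0.21 SE, edgeR adjusted p = 0.232), and bulk MPC overlapped differentiated myoblasts. The last pair differed by 0.50 ± 0.21 SE on the log2 scale (edgeR adjusted p = 0.0723).

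Actg1, gamma-actin, was at 3677, 3835 and 4523 CPM in GFP+ myoblasts, at 2457, 2679.5 and 2122 CPM in bulk myoblasts and at 1522, 1338 and 1749.8 CPM in GFP+ MPC. It was at 267, 392 and 220.4 CPM in bulk MPC and at 189, 346 and 290.5 CPM in differentiated myoblasts. The first 3 groups stood apart and the last 2 overlapped (log2 fold change 0.09 ± 0.23 SE, edgeR adjusted p = 0.774). The ratio of Actb to Actg1 on the TPM scale was 1.49 ± 0.151 (SD, n = 3) in bulk MPC, above the range of the other 4 groups (0.927 to 1.24). With protein-coding transcripts alone, Actb still took more of the actin TPM than Actg1 in bulk MPC (1.15% against 0.895%) but less in differentiated myoblasts (0.859% against 0.908%), where the deposited TPM gave 1.22% and 1.12%.

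Acta2, smooth muscle alpha-actin, followed neither set. It was at 904, 873 and 1242 CPM in bulk myoblasts, at 845, 879.8 and 1002 CPM in differentiated myoblasts and at 214, 361 and 605 CPM in GFP+ MPC. It was at 464, 462 and 183 CPM in GFP+ myoblasts and at 147, 209.7 and 168 CPM in bulk MPC. The first 2 groups overlapped, as did the 2 sorted groups (log2 fold change 0.09 ± 0.36 SE, edgeR adjusted p = 0.850), and bulk MPC also overlapped GFP+ myoblasts through the third GFP+ myoblast library, although that pair passed the test (adjusted p = 0.0167), as 70.9% of tested genes did. Acta2 also fell from differentiated myoblasts to GFP+ MPC (log2 fold change 1.21 ± 0.36 SE between them, edgeR adjusted p = 0.00895), a pair in which 70.6% of tested genes passed.

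Actg2, smooth muscle gamma-actin, was close to the lower limit of detection. Its estimated counts were 52, 36 and 48 in bulk myoblasts, 78, 30 and 38 in GFP+ myoblasts and 35, 93 and 150 in GFP+ MPC. They were 7, 21 and 2 in bulk MPC and 1, 1 and 5 in differentiated myoblasts. All libraries of the replicated GFP+ MPC group and of bulk and GFP+ myoblasts lay above all bulk MPC and differentiated libraries.

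**Figure D2:**
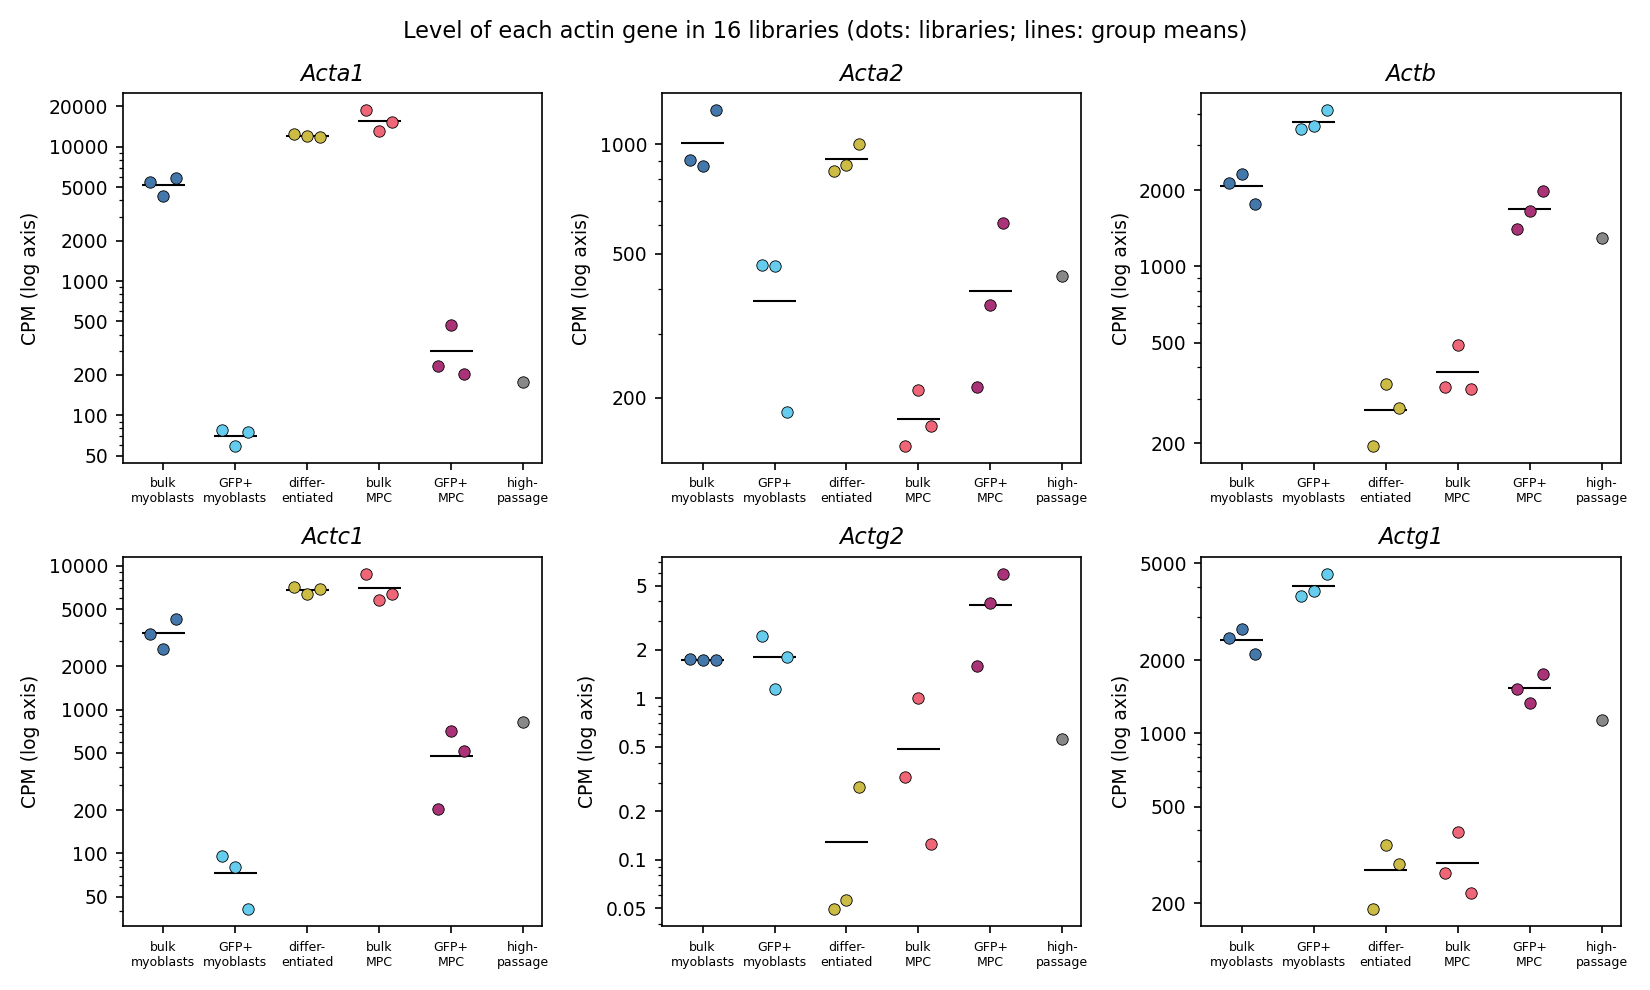
Level of each actin gene in CPM (vertical log axes, each with its own range) in 16 libraries grouped by culture; dots are libraries and lines are means of 3. Acta1 and Actc1 are lowest in GFP+ myoblasts (at most 96.1 CPM), Actb and Actg1 are lowest in differentiated myoblasts and bulk MPC (at most 488 CPM), and Acta2 is lowest in bulk MPC.

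Between sorted MPC and sorted myoblasts, striated actins rose and cytoplasmic actins fell. In this comparison 4 of the 6 genes passed the test, 2 in each direction, where 48.6% of 15533 tested genes passed (26% higher, 22.7% lower). Acta1 was 4.26-fold higher in GFP+ MPC (log2 fold change 2.09 ± 0.28 SE, edgeR adjusted p = 4.68e-05) and Actc1 was 6.56-fold higher (2.71 ± 0.41 SE, adjusted p = 0.000134). Both remained far below their level in unsorted cultures. Actb was 2.22-fold lower (log2 fold change -1.15 ± 0.21 SE, edgeR adjusted p = 0.000686) and Actg1 was 2.61-fold lower (-1.38 ± 0.23 SE, adjusted p = 0.000327). Acta2 (log2 fold change 0.09 ± 0.36 SE, adjusted p = 0.850) and Actg2 (1.08 ± 0.56 SE, adjusted p = 0.129) did not pass; without GFP+ MPC replicate 1, Actg2 did (1.45, adjusted p = 0.0470), and without GFP+ MPC replicate 3 its value was 0.61 (adjusted p = 0.423).

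Between bulk MPC and bulk myoblasts, all 6 genes passed, 2 higher and 4 lower, where 58.5% of tested genes passed (28.4% higher, 30.1% lower). Acta1 was 3.00-fold higher (log2 fold change 1.59 ± 0.27 SE, edgeR adjusted p = 0.000259) and Actc1 2.04-fold higher (1.03 ± 0.39 SE, adjusted p = 0.0345). Actg1 was 8.25-fold lower (-3.04 ± 0.25 SE, adjusted p = 8.63e-07), Acta2 5.75-fold lower (-2.52 ± 0.38 SE, adjusted p = 9.46e-05), Actb 5.39-fold lower (-2.43 ± 0.22 SE, adjusted p = 1.97e-06) and Actg2 3.43-fold lower (-1.78 ± 0.64 SE, adjusted p = 0.0278). Without bulk MPC replicate 2, Actg2 fell by 2.85 on the log2 scale. The Actc1 call was lost with the replicate number as a block (1.02, edgeR adjusted p = 0.0545) and with scaling by library totals alone (0.66, adjusted p = 0.150). It was also lost without bulk myoblast replicate 1 (1.03, adjusted p = 0.0801) or 2 (0.87, adjusted p = 0.120) and without bulk MPC replicate 1 (0.83, adjusted p = 0.119) or 3 (1.09, adjusted p = 0.0536). The Actg2 call was lost without bulk myoblast replicate 1 (-1.76, adjusted p = 0.0594), 2 (-1.79, adjusted p = 0.0533) or 3 (-1.79, adjusted p = 0.0507) and without bulk MPC replicate 1 (-1.54, adjusted p = 0.0953) or 3 (-1.37, adjusted p = 0.0934).

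After 3 days of differentiation, 5 of the 6 genes had changed against bulk myoblasts, 2 higher and 3 lower, where 54.2% of tested genes passed (25.6% higher, 28.6% lower). Acta1 was 2.32-fold higher (log2 fold change 1.21 ± 0.27 SE, edgeR adjusted p = 0.00198) and Actc1 1.98-fold higher (0.99 ± 0.39 SE, adjusted p = 0.0441). Actg1 was 8.79-fold lower (-3.14 ± 0.25 SE, adjusted p = 9.73e-07), Actb 7.63-fold lower (-2.93 ± 0.23 SE, adjusted p = 9.25e-07) and Actg2 13.2-fold lower (-3.72 ± 0.78 SE, adjusted p = 0.00132). Acta2 did not pass (-0.15 ± 0.36 SE, adjusted p = 0.749). Without differentiated replicate 3, which held 5 of the 7 Actg2 counts of its group, Actg2 fell by 4.90 on the log2 scale. The Actc1 call held in 1 of 6 fits that each left out a library; it was lost without bulk myoblast replicate 1 (0.98, adjusted p = 0.100) or 2 (0.83, adjusted p = 0.147) and without differentiated replicate 1 (0.96, adjusted p = 0.0944), 2 (1.03, adjusted p = 0.0723) or 3 (0.98, adjusted p = 0.0862). It was also lost with scaling by library totals alone (0.77, adjusted p = 0.104) and with no filter on low counts (0.92, adjusted p = 0.0571). The replicate number as a block ended the Actc1 call too.

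These 2 comparisons share the bulk myoblast libraries, so their likeness is no independent support for either. In the direct comparison of bulk MPC with differentiated myoblasts, 1 of the 6 genes passed, where 43.8% of tested genes passed (24.4% higher, 19.4% lower). That gene was Acta2, 5.20-fold lower in bulk MPC (log2 fold change -2.38 ± 0.38 SE, edgeR adjusted p = 0.000273). Actb passed without differentiated replicate 2 (0.70, adjusted p = 0.0281), and its value was 0.31 (adjusted p = 0.272) without differentiated replicate 1 and 0.29 (adjusted p = 0.309) without bulk MPC replicate 2. Actg2 passed without bulk MPC replicate 3 (2.35, adjusted p = 0.0385) or differentiated replicate 3 (3.12, adjusted p = 0.0411), and was at 0.87 (adjusted p = 0.484) without bulk MPC replicate 2. For Acta1, Actc1 and Actg1 a missed threshold does not show equal levels.

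Among these 6 comparisons, the striated genes differed most between sorted and bulk cells of the same culture. GFP+ myoblasts had 73.6-fold less Acta1 than bulk myoblasts (log2 fold change -6.20 ± 0.33 SE, edgeR adjusted p = 4.18e-08) and 47.1-fold less Actc1 (-5.56 ± 0.47 SE, adjusted p = 1.83e-06). In this comparison 5 of the 6 genes passed, 2 higher and 3 lower, where 30% of tested genes passed (12.7% higher, 17.4% lower). Acta2 was 2.72-fold lower (-1.45 ± 0.37 SE, adjusted p = 0.0102), Actb was 1.80-fold higher (0.85 ± 0.21 SE, adjusted p = 0.00989) and Actg1 1.66-fold higher (0.73 ± 0.23 SE, adjusted p = 0.0297). Actg2 did not pass (0.06 ± 0.57 SE, adjusted p = 0.952). Without bulk myoblast replicate 3 neither Actb (0.74, adjusted p = 0.0524) nor Actg1 (0.64, adjusted p = 0.117) passed, so 3 genes remained called. Actg1 also missed the threshold without bulk myoblast replicate 1 (0.75, adjusted p = 0.0732), GFP+ myoblast replicate 2 (0.76, adjusted p = 0.0504) or GFP+ myoblast replicate 3 (0.64, adjusted p = 0.0974).

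In the MPC cultures all 6 genes passed between sorted and bulk cells, 4 higher and 2 lower, where 66.6% of tested genes passed (32.9% higher, 33.7% lower). GFP+ MPC had 51.9-fold less Acta1 (log2 fold change -5.70 ± 0.32 SE, edgeR adjusted p = 1.52e-08) and 14.7-fold less Actc1 (-3.87 ± 0.43 SE, adjusted p = 3.44e-06). They had 5.24-fold more Actg1 (2.39 ± 0.24 SE, adjusted p = 1.51e-06), 4.37-fold more Actb (2.13 ± 0.22 SE, adjusted p = 1.90e-06), 7.57-fold more Actg2 (2.92 ± 0.64 SE, adjusted p = 0.00114) and 2.25-fold more Acta2 (1.17 ± 0.36 SE, adjusted p = 0.0117). Acta2 missed the threshold without GFP+ MPC replicate 3 (0.72, adjusted p = 0.0842), the library with the highest Acta2 of its group. Actg2 rose to a log2 fold change of 3.99 without bulk MPC replicate 2.

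The change from bulk to GFP+ cells was not the same in the 2 cultures, by a test of the difference between the log2 fold changes. The difference (GFP+ against bulk in MPC minus the same in myoblasts) passed for 5 of the 6 genes, all positive. Of all tested genes 37.1% passed in either direction, 20.3% as positive and 16.8% as negative calls. Acta2 had the clearest change of sign, lower in sorted myoblasts and higher in sorted MPC (difference 2.62 ± 0.52 SE on the log2 scale, edgeR adjusted p = 0.00170). For Actg1 the difference was 1.66 ± 0.33 SE (adjusted p = 0.00167) and for Actb 1.28 ± 0.30 SE (adjusted p = 0.00491). For Actg2 it was 2.86 ± 0.85 SE (adjusted p = 0.0180), or 3.93 without bulk MPC replicate 2. For Acta1 it did not pass (0.50 ± 0.38 SE, adjusted p = 0.316). Actc1 passed (1.68 ± 0.55 SE, adjusted p = 0.0273) and lost the call in 7 of 12 fits that each left out a library, with adjusted p from 0.0501 to 0.0699. Those libraries were bulk myoblast replicates 1 and 3 (1.68 and 1.50), GFP+ myoblast replicate 3 (1.40), bulk MPC replicates 2 and 3 (1.56 and 1.62) and GFP+ MPC replicates 2 and 3 (1.28 and 1.63).

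**Figure D3:**
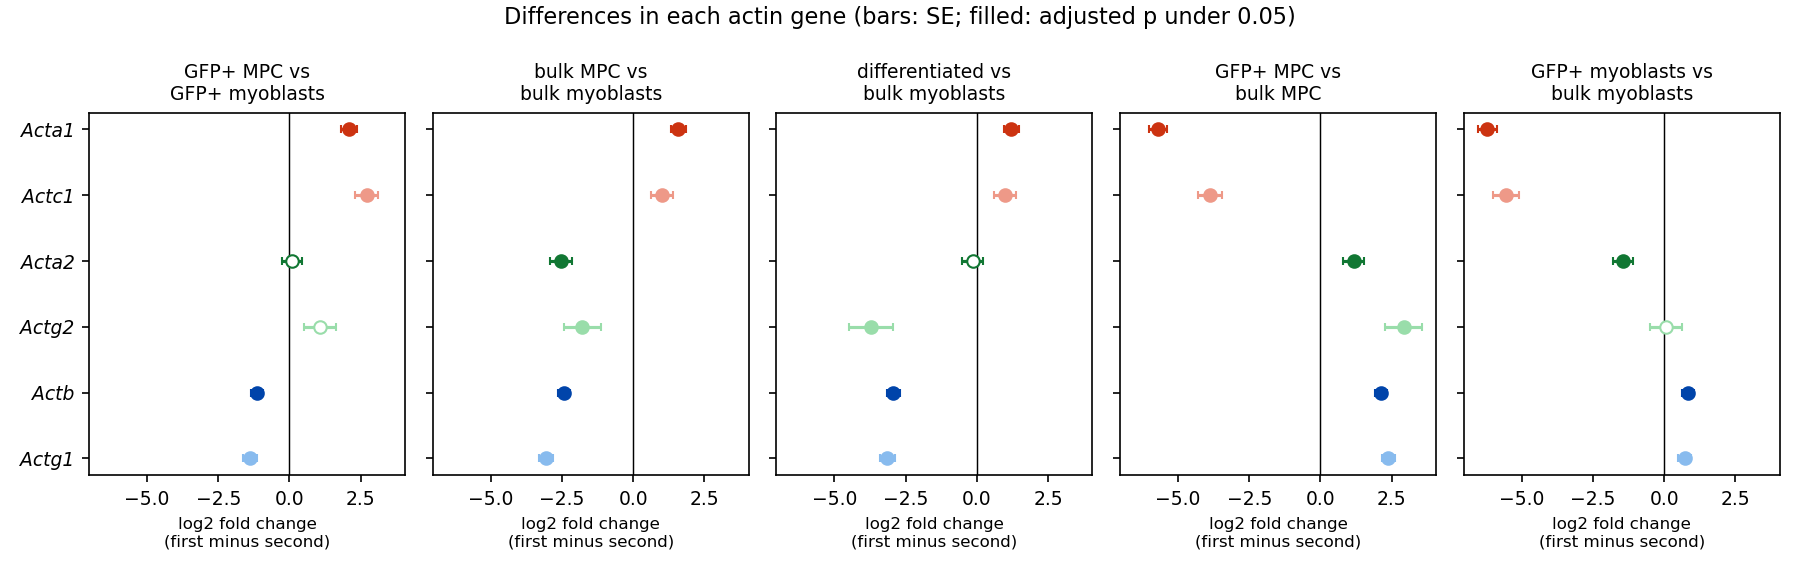
Log2 fold change of each actin gene in 5 comparisons (horizontal axes, first group minus second), with bars of 1 SE; filled dots passed an edgeR adjusted p of 0.05. Red dots (striated) lie to the right of 0 in the 3 panels on culture and to the left in the 2 panels on sorting, blue dots (cytoplasmic) the reverse, and Acta2 changes side between the 2 sort panels.

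Markers of smooth muscle and pericytes were read beside Acta2. The summed CPM of 12 such markers were 570 to 663 in bulk myoblasts, 228 to 251 in GFP+ myoblasts, 1093 to 1106 in differentiated myoblasts, 1405 to 1631 in bulk MPC and 271 to 455 in GFP+ MPC. Much of the sum in bulk MPC came from Synpo2 (767 to 1042 CPM), which striated muscle also expresses. Rgs5, a pericyte marker, went the other way, with 114 to 221 CPM in bulk myoblasts and 1.30 to 10.8 CPM in bulk MPC (log2 fold change -4.43 ± 0.93 SE, edgeR adjusted p = 0.00123). The defining marker Myh11, smooth muscle myosin, had group means of 0.0461 to 1.19 CPM, and Myocd, the co-activator of smooth muscle genes, of 0.0363 to 0.944 CPM. Between GFP+ MPC and GFP+ myoblasts, 5 of the 11 tested markers rose and 2 fell (median 0.46), where 26% of all tested genes rose and 22.7% fell. Pdgfrb, a receptor of pericytes and fibroblasts, was at 83.3 to 145 CPM in GFP+ MPC and at 1.62 to 8.96 CPM in GFP+ myoblasts (log2 fold change 4.57 ± 0.97 SE, edgeR adjusted p = 0.00175), whereas Rgs5 was at 2.56 to 33.6 and 72.6 to 85.2 CPM (-2.58 ± 0.86 SE, adjusted p = 0.0235). The part of other cell types in the Acta2 levels was not tested.

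Of 13 genes on a list of smooth muscle contractile genes, 12 were tested, and they did not move as a set. In bulk MPC against bulk myoblasts 7 rose and 4 fell (list median 0.87 on the log2 scale, all genes -0.01), where 28.4% of all tested genes rose and 30.1% fell. Synm (3.38 ± 0.31 SE), Synpo2 (2.39 ± 0.26 SE) and Lmod1 (2.36 ± 0.33 SE), which are also active in striated muscle, were the largest rises. The largest falls were Myl9, a regulatory myosin light chain (-4.05 ± 0.55 SE), Cald1, caldesmon (-3.54 ± 0.36 SE), and Tagln, transgelin (-3.41 ± 0.50 SE). Tagln was at 72.8 to 105 CPM in bulk myoblasts, 26.3 to 86.4 CPM in GFP+ myoblasts and 45.7 CPM ± 16.0 (SD, n = 3) in GFP+ MPC. It was at 5.17 to 14.3 CPM in differentiated myoblasts and 4.54 to 13.3 CPM in bulk MPC, without overlap with the other groups.

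By the number of genes called, the 25 genes of the sarcomeric thin filament, actins left out, moved largely with Acta1 and Actc1. In bulk MPC against bulk myoblasts 20 rose and 2 fell (median 1.50), where 28.4% of all tested genes rose and 30.1% fell. In differentiated against bulk myoblasts 21 rose and 2 fell (median 1.46, all genes -0.03), where 25.6% of all tested genes rose and 28.6% fell. Between GFP+ MPC and GFP+ myoblasts 14 rose and 6 fell (median 0.76, all genes 0.09), where 26% of all tested genes rose and 22.7% fell. The largest rises there were Xirp2, an actin-binding repeat protein (4.76 ± 0.53 SE), Tmod4, a tropomodulin that caps thin filaments (3.84 ± 0.90 SE), and Tnnc2, fast troponin C (3.60 ± 0.38 SE). In GFP+ myoblasts Xirp2 (0.114 to 0.238 CPM) and Tmod4 (0 to 0.381 CPM) were close to the lower limit of detection. The falls included Nebl (-2.95 ± 0.44 SE), Tpm1, a tropomyosin (-1.71 ± 0.29 SE), and Tnnt2, cardiac troponin T (-1.32 ± 0.33 SE). The summed CPM of the list did not rise with the count in sorted cells, at 1947 to 4050 in GFP+ MPC and 3340 to 3658 in GFP+ myoblasts. In unsorted cells they were 12631 to 17551 in bulk myoblasts, 38984 to 41792 in differentiated myoblasts and 35053 to 44165 in bulk MPC.

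Genes that handle cytoplasmic filaments fell more often than they rose in the comparisons between cultures, in which Actb and Actg1 fell, and were mixed in the comparisons of sorted with bulk cells, in which both rose. The share of all tested genes that rose and fell was 26% and 22.7% in GFP+ MPC against GFP+ myoblasts, 28.4% and 30.1% in bulk MPC against bulk myoblasts and 25.6% and 28.6% after differentiation. Of 33 tested genes of actin nucleation and elongation, 2 rose and 20 fell in GFP+ MPC against GFP+ myoblasts (median -0.77), 2 rose and 22 fell in bulk MPC against bulk myoblasts (median -0.92), and 8 rose and 21 fell after differentiation (median -0.77). In GFP+ against bulk MPC 15 rose and 11 fell (median -0.20, with 32.9% of all genes rising and 33.7% falling), and in GFP+ against bulk myoblasts 6 rose and 8 fell (median 0.27, with 12.7% and 17.4%). The largest falls in GFP+ MPC were the formins Fmn2 (-5.12 ± 0.79 SE) and Fmn1 (-4.81 ± 0.44 SE) and the nucleator Spire2 (-3.25 ± 0.44 SE), while Enah, a filament elongation factor, rose (0.71 ± 0.16 SE). Fmn2 was close to the lower limit of detection in GFP+ MPC (0 to 0.211 CPM). Of 16 crosslinking and bundling genes, 2 rose and 11 fell in each MPC comparison (medians -1.05 and -1.08), and 4 rose and 8 fell after differentiation (median -0.51). In GFP+ against bulk cells 9 rose and 6 fell in MPC (median 0.62) and 1 rose and 5 fell in myoblasts (median 0.10). Pls1, a plastin that bundles filaments, rose in GFP+ MPC (4.31 ± 0.49 SE) and in bulk MPC (1.50 ± 0.51 SE), while Pls3, another plastin, fell in both (-2.38 ± 0.20 SE and -2.69 ± 0.20 SE). Pls1 was low in bulk MPC even so (0.249 to 0.982 CPM).

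Of 25 tested genes of actin turnover, sequestering and capping, 2 rose and 15 fell in GFP+ MPC against GFP+ myoblasts (median -0.52), 8 rose and 9 fell in bulk MPC against bulk myoblasts (median -0.03), and 5 rose and 12 fell after differentiation (median -0.55). In these 3 comparisons 48.6%, 58.5% and 54.2% of all tested genes passed. In GFP+ against bulk MPC 8 rose and 13 fell (median -0.39), where 32.9% of all tested genes rose and 33.7% fell. In GFP+ against bulk myoblasts 5 rose and 7 fell (median -0.10), where 12.7% rose and 17.4% fell. Pfn2, a profilin, rose in GFP+ MPC (3.09 ± 0.30 SE) and in bulk MPC (1.88 ± 0.29 SE). After differentiation Cfl2, the muscle cofilin, rose (1.37 ± 0.14 SE), while Cfl1, the non-muscle cofilin, fell (-2.44 ± 0.15 SE).

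Cytoskeletal targets of SRF and MRTF, actins left out, fell more often than they rose in MPC against myoblasts and after differentiation. Of 23 tested, 1 rose and 18 fell in GFP+ MPC against GFP+ myoblasts (median -1.71), 3 rose and 16 fell in bulk MPC against bulk myoblasts (median -1.90), and 1 rose and 15 fell after differentiation (median -1.23). Of all tested genes, 22.7%, 30.1% and 28.6% fell in these comparisons. The largest falls in GFP+ MPC were Ccn2 (-5.34 ± 0.56 SE), Ankrd1 (-5.02 ± 0.38 SE) and Tgfb1i1 (-4.13 ± 0.35 SE), the first 2 of which are also targets of YAP. Ccn2 was close to the lower limit of detection in GFP+ MPC (0.0789 to 0.126 CPM). Fhl1 was the gene that rose (2.70 ± 0.20 SE). Srf itself did not pass in any of these 3 comparisons (group means 64.6 to 76.8 CPM). Mrtfa, which encodes MRTF-A, was at 12.2 CPM in GFP+ MPC against 27.4 CPM in GFP+ myoblasts (log2 fold change -1.16 ± 0.16 SE, edgeR adjusted p = 5.97e-05), and Mrtfb, which encodes MRTF-B, was at 98.5 against 60.6 CPM (0.70 ± 0.13 SE, adjusted p = 0.000540). Of the 17 SRF and MRTF factors and co-factors, 7 rose and 6 fell in that comparison (median -0.09), where 26% of all tested genes rose and 22.7% fell. The 23 targets were mixed elsewhere. In GFP+ against bulk MPC 11 rose and 9 fell (median 0.43, with 32.9% of all genes rising and 33.7% falling). In GFP+ against bulk myoblasts 3 rose and 5 fell (median 0.32, with 12.7% and 17.4%). In bulk MPC against differentiated myoblasts 5 rose and 7 fell (median -0.12, with 24.4% and 19.4%).

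**Figure D4:**
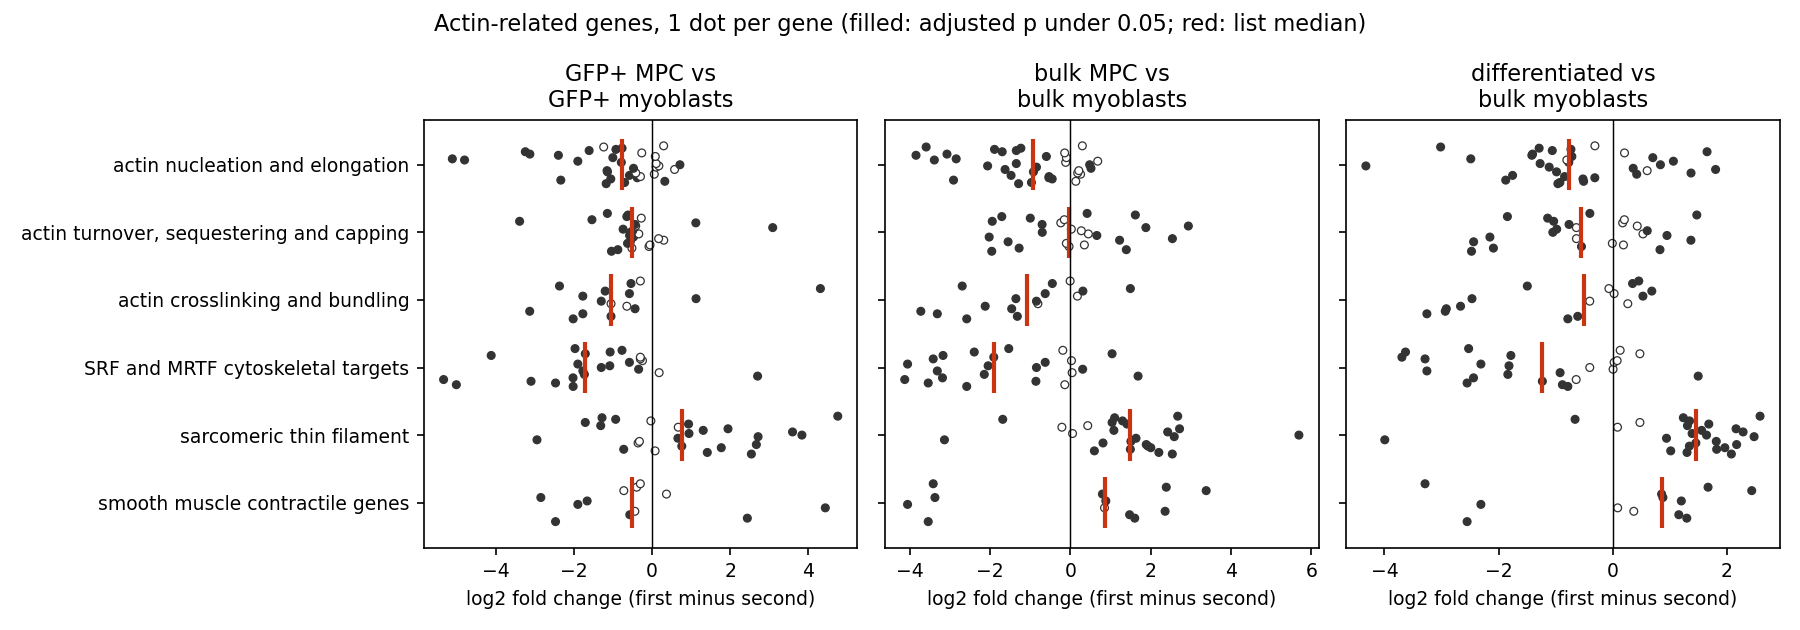
Log2 fold changes (horizontal axes) of actin-related genes on 6 lists, 1 dot per gene, in 3 comparisons; filled dots passed an edgeR adjusted p of 0.05, and red bars are list medians. The bars of nucleation, crosslinking and SRF target genes lie left of 0 in all 3 panels (medians from -1.90 to -0.51), and that of the thin filament lies right of 0 (0.76 to 1.50).

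Genes that fold and modify actin had medians near that of all genes in the MPC comparisons. Of 23 tested genes of folding and protein modification, 5 rose and 4 fell in GFP+ MPC against GFP+ myoblasts (median 0.13), 7 rose and 4 fell in bulk MPC against bulk myoblasts (median 0.11), and 5 rose and 8 fell after differentiation (median -0.18). The share of all tested genes that passed was 48.6%, 58.5% and 54.2%. Setd3, the methyltransferase of an actin histidine, was higher in bulk MPC (0.58 ± 0.08 SE, edgeR adjusted p = 5.59e-05) and in differentiated myoblasts (0.47 ± 0.08 SE, adjusted p = 0.000317). Naa80, the acetyltransferase of mature actin, was also higher in bulk MPC (0.66 ± 0.17 SE) and in differentiated myoblasts (1.19 ± 0.17 SE). Single genes could still change strongly: Mical2, another modifier of actin, was at 6.39 to 21.0 CPM in GFP+ MPC and 211 to 263 CPM in GFP+ myoblasts. Of 17 actin-like and actin-related genes 7 were tested. In GFP+ MPC against GFP+ myoblasts edgeR called 0, with 0 at an unadjusted p under 0.05, and DESeq2 called 0. In bulk MPC and in differentiated myoblasts 3 rose and 1 fell against bulk myoblasts, and 2 rose and 5 fell in GFP+ against bulk MPC, where 66.6% of all genes passed.

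Transcripts within Actb and Actg1 also shifted, in the annotation's terms. An Actg1 transcript annotated as a target of nonsense-mediated decay carries an extra exon of 45 bases between exons 3 and 4, at chr11:120347492-120347536 on the minus strand (GRCm38). The exon is printed because the main Actg1 transcript lacks it, with its in-frame stop codon in capitals. In the files, 2 retained-intron transcripts of Actg1 overlap it too.
Actg1 extra exon: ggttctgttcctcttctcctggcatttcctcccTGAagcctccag

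This transcript took 5.40%, 3.85% and 4.16% of Actg1 counts in differentiated myoblasts and 4.94%, 1.50% and 3.31% in bulk MPC. It took 0.956%, 1.38% and 1.06% in bulk myoblasts, 0.588%, 0.426% and 0.244% in GFP+ myoblasts and 0.198%, 0.355% and 0.273% in GFP+ MPC. Differentiated myoblasts and bulk MPC lay above the other groups. The transcript's own estimated counts did not rise with its share, being 208 to 238 in differentiated and 627 to 772 in bulk myoblasts. Actg1 as a whole was 8.79-fold lower in differentiated myoblasts. A shorter Actb transcript annotated as processed, without a coding sequence, took 9.88% to 12.1% of Actb counts in differentiated myoblasts and 6.71% to 11.7% in bulk MPC. It took 0.848% to 1.53% in bulk myoblasts and 0.0757% to 0.270% in the 2 replicated sorted groups. Its estimated counts were 481 to 644 in differentiated, 511 to 839 in bulk MPC, 458 to 751 in bulk myoblasts and 26.1 to 299.9 in sorted cells. No test was run on these shares, which rest on how the authors' tool divided reads among overlapping transcripts.

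**Figure D5:**
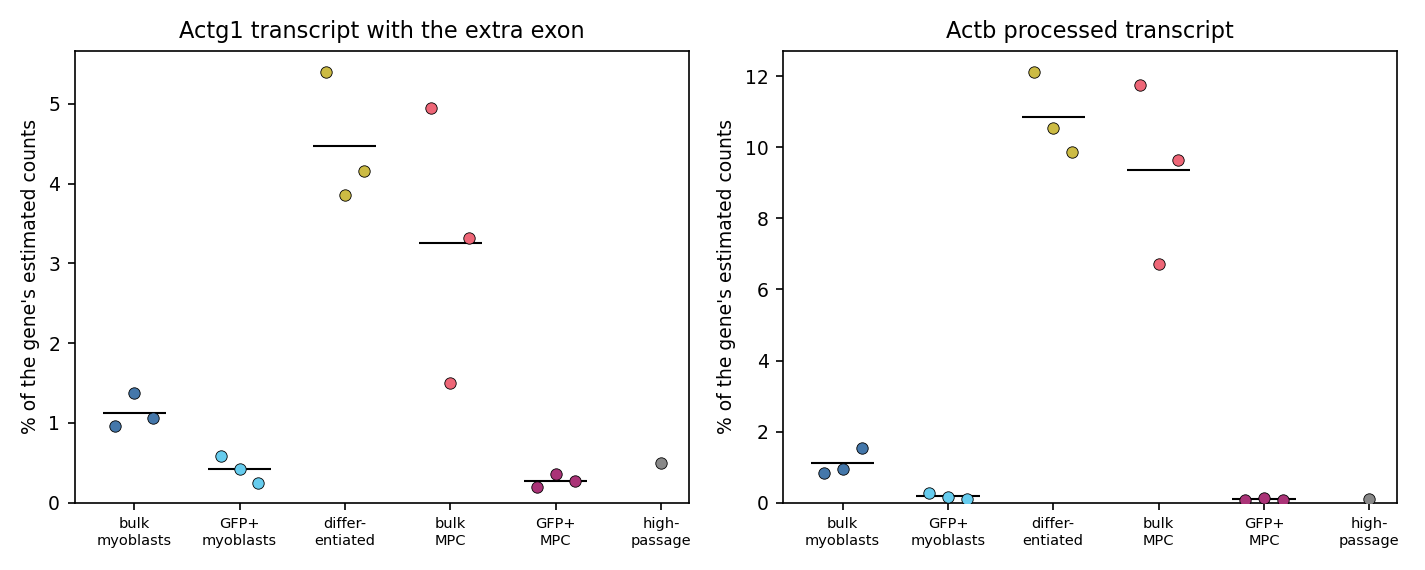
Percent of the gene's estimated counts (vertical axes) given to the Actg1 transcript with the extra exon (left) and to the Actb processed transcript (right) in 16 libraries; dots are libraries and lines are means of 3. Both shares are highest in differentiated myoblasts (means 4.47% and 10.8%) and bulk MPC (3.25% and 9.37%).

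The members resemble each other closely, which bears on the counting. The open reading frames of their most abundant transcripts had 375 to 377 codons and were 81.5% to 88.7% identical in bases, with Actb and Actg1 the closest pair. Even so, between 93.4% and 99.2% of the stretches of 31 bases in the main transcripts of Acta1, Acta2, Actc1, Actg1 and Actg2 were found in no other gene's transcripts. For Actb this was 69.4%, because 429 of its 1890 such stretches also occur in transcripts of Lrrc58, a gene with 52026 estimated counts over the 16 libraries against 641098 for Actb. How far this sharing moved the Actb level was not tested.

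Across the 15 replicated libraries, the levels of Actb and Actg1 (log2 CPM) had a Pearson correlation of 0.992, and Acta1 and Actc1 of 0.981. Acta1 against Actb stood at -0.814, and Acta2 against the other members at -0.0157 to 0.261. These correlations describe points that share groups, kits and media, so they follow the group means. Among 9207 protein-coding genes at a mean of at least 10 CPM, those most like Acta1 were Myom1 (0.998), Csrp3 (0.997) and Casq2 (0.997), and those most like Actc1 were Smpx (0.992), Gja5 (0.989) and Kank1 (0.988). Coro1c (0.994), Cap1 (0.994) and Rrm2 (0.993) were the most like Actb, and Flna (0.993), Coro1c (0.993) and Actb (0.992) the most like Actg1. For Acta2 the nearest were Fibin (0.891), Ufd1 (0.883) and Pikfyve (0.874).

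The high-passage GFP+ MPC library was described without a test. It held Acta1 at 178, Actc1 at 816, Acta2 at 433, Actb at 1295 and Actg1 at 1129 CPM, with 13 estimated counts of Actg2. Acta1, Actb, Actg1 and Actg2 were below the 3 GFP+ MPC libraries, Actc1 was above them, and Acta2 lay within their range. Its actin TPM split into 28.8% striated, 58.4% cytoplasmic and 12.8% smooth muscle, and its ratio of Acta1 to Actc1 was 0.234, below all 15 other libraries.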

How the data were processed

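The deposited tables (1 a library, 16 in all) give estimated counts and TPM for 121798 transcripts, with length and effective length in bases (an other unit), per the file headers. Per the submitters' processing notes the authors used fastp 0.20.0, kallisto 0.46.1 and GRCm39; the poly(A) libraries were stranded and single-end per the labels' protocols.

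Here the authors' estimated counts and the deposited TPM were summed per gene with GENCODE M21, on GRCm38, used for names and the printed sequences; 1059 transcripts without a match (0.478% to 1.05% of counts) were left out. Rounded counts of 15 libraries were fitted in edgeR 4.0.16 (R 4.3.3) with TMM, a term per group, the quasi-likelihood test and a low-count filter (minimum count 10, minimum total 15), which left 15533 genes and all 6 actins. Adjusted p values are Benjamini-Hochberg over these genes with a threshold of 0.05, and SE is the log2 fold change over the root of F. Tested on simulated data for GFP+ MPC against GFP+ myoblasts (15056 genes), the fit called 63 of 100 2-fold and 100 of 100 4-fold changes in the right direction with 7 false calls, so a 2-fold change can be missed. DESeq2 1.42.0, other scalings and filters, and leaving out each library were alternatives. No replicate pair was closer than counting error. P values measure the spread between samples that the labels call biological replicates.

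The members, lists and tests were chosen with earlier results of these data known. Named were the 6 members, the 3 genes most like each member at 10 CPM or more, up to 3 list members with the largest called change in each direction, and 4 label checks (Pax7, Myod1, Myog, Mki67). Other genes (Cfl1, Srf, Mrtfa, Mrtfb, Mical2, Pdgfrb, Rgs5, Myh11, Myocd and Lrrc58) and the 2 transcripts were chosen after their values were seen. The main fit took no replicate numbers as pairs, and its p values are unpaired throughout. In bulk MPC against bulk myoblasts all 3 same-numbered pairs of libraries deviated together beyond a preset correlation (0.131 to 0.163). In the other comparisons 2 of 3 pairs at most did so. For bulk MPC against bulk myoblasts the fit with the replicate number as a block, in which Actc1 lost its call, is therefore given beside the main one.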

Additional observations from a re-analysis of the deposited data

Results flagged for a closer look

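The change from bulk to GFP+ cells was not the same in the MPC and the myoblast cultures, by a test of the difference itself (edgeR, adjusted over 15533 genes). The difference in log2 fold change was 2.62 for Acta2, 1.28 for Actb, 1.68 for Actc1, 1.66 for Actg1 and 2.86 for Actg2. Of all tested genes 37.1% passed, 20.3% as positive calls. The Actc1 call held in 5 of 12 fits that each left out a library, and Actg2 had 2 to 21 counts a library in bulk MPC. Acta2 was lower in 3 of 3 sorted myoblast libraries than in every bulk myoblast library, and higher in 3 of 3 sorted MPC libraries than in every bulk MPC library. Passage number differed between sorted and bulk myoblasts but not between sorted and bulk MPC, so passage and sort cannot be told apart in myoblasts. The RNA kit differed between sorted and unsorted cells in both cultures, so kit and sort cannot be told apart in either.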

How the results depend on the processing

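Under 9 other settings of the fit (DESeq2, RLE scaling, library totals alone, no filter, only the groups compared, the replicate block, length-scaled TPM, protein-coding transcripts alone, and TMM factors without actin and thin filament genes, the last chosen after seeing the data), no called actin gene reversed. The number of genes called between bulk MPC and differentiated myoblasts was 2 with the replicate block and 2 with length-scaled TPM, against 1. Leaving out 1 library gave 1 to 2 there and 3 to 5 between GFP+ and bulk myoblasts. The replicate block ended the Actc1 calls in bulk MPC (1.02) and differentiated myoblasts (0.98) against bulk myoblasts, and made that of Actb between bulk MPC and differentiated myoblasts (0.51); it changed no other call. Library totals alone ended the same 2 Actc1 calls (0.66 and 0.77) while moving the median of all genes to -0.38 and -0.25, and no filter ended the second (0.92). Dividing counts by the main transcript's length gave smooth muscle actins 5.79% in bulk and 3.35% in differentiated myoblasts, and striated actins 94.5% in the latter. Steps in the order of levels outside the 6 comparisons were not rerun. Causes were not tested. Of the actin genes, depth limits Actg2 alone, with 1 to 21 counts a library in bulk MPC and differentiated myoblasts.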
